A study of Mus musculus with 56 samples.

Results

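The genes described here are the integrin and laminin subunit genes of the mouse liver RNA-seq table, chosen by symbol alone: Itga plus digits or 1 letter, Itgb plus 1 digit, and Lama, Lamb or Lamc plus 1 digit. The rule found 37 of the 21888 gene symbols, namely 26 integrins (18 alpha and 8 beta subunits) and 11 laminin chains. Integrins are cell surface receptors built from 1 alpha and 1 beta subunit, and the pair sets which ligand is bound. The beta2 integrins sit on leukocytes and bind ICAMs, whereas most beta1 and alphav integrins bind extracellular matrix such as fibronectin, collagen or laminin. Laminins are secreted trimers of an alpha, a beta and a gamma chain, and they form the core of basement membranes. Normal liver sinusoids lack a continuous basement membrane, while bile ducts and portal vessels rest on one.

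The study removed miR-122, the dominant microRNA of hepatocytes, to follow the mouse liver transcriptome afterwards. All RNA-seq libraries were poly(A) RNA from livers of the 129Sv/J background. Mice with loxP sites around miR-122 were sampled uninjected (day 0, 3 libraries), or 21 days (3 libraries), 45 days (3 libraries), 100 days (1 library) and 200 days (1 library) after an intravenous AAV8 vector carrying Cre. Cre was driven by the Ef1a promoter, which is active in many cell types. The last group was liver of miR-122 knockout mice (3 libraries). They were compared with the floxed mice, because the series held no wild-type RNA-seq library. Mouse line and miR-122 loss therefore cannot be told apart in the knockout comparisons, and the knockout sample titles give no age. The day 0 mice received no vector, so vector exposure, time and miR-122 loss cannot be told apart, and the injected mice were adult, with no exact age given in the sources used here. The day 100 and day 200 libraries entered the tests as 1 group of 2. The labels did not state whether replicates were littermates, and p-values measure the spread between these libraries.

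In small RNA libraries of the same series, miR-122 made up 59.2% to 73.3% of the listed RPM (reads scaled to library size) before injection. The share was 8.22% to 13.2% at day 21, 0.38% to 1.23% at day 45, and 4.46% and 19.1% in the day 100 and day 200 livers. No small RNA library of the knockout was used here. Each RNA-seq library held about 23.1 to 52.4 M fragments, estimated from the smallest FPKM steps, with the knockout at 23.1 to 29.9 M. FPKM counts fragments per kilobase of transcript, scaled to library size, so levels of different genes are on a per-length scale.

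Knockout replicate C stood apart from knockout replicates A and B. Its log2 values correlated with theirs at r = 0.881 to 0.895 across genes, against 0.986 between A and B and 0.927 to 0.955 with the floxed libraries. Knockout replicates A and B also read long transcripts low: the median log2 ratio to day 0 of transcripts of at least 5000 bases, minus that of transcripts under 2000 bases, was -0.897 and -0.524, against -0.28 to 0.345 in the other libraries. Integrin and laminin transcripts are long (2674 to 11388 bases, median 5164). The main knockout results below are given with and without replicate C, and the fitted ones also with the length trend removed. Day 45 replicate B correlated with the day 100 and day 200 libraries at r = 0.980 and 0.975, and with day 45 replicates A and C at 0.978 and 0.962. Albumin, the defining hepatocyte gene, was listed at 0 in all 14 libraries, so a 0 in this table can be a failed estimate. The summed level of the 8 hepatocyte markers was 26650 to 29210 FPKM at day 0 and 20428 to 26989 at day 45. It was 14764 and 22824 at days 100 and 200 (2 of 7 tested lower than at day 0, against 3.21% of all genes). In the knockout it was 22915 to 33957.

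Of the 37 genes, 26 had a mean of at least 1 FPKM over the 14 libraries and were tested. Only 16 of these had a day 0 mean of at least 1 FPKM, so 10 passed through later groups in which they were high. None was called lower than at day 0 after excision. At day 21, 7 of 26 were higher, where 6.2% of the 11354 genes tested were called higher and 1.42% lower. At day 45, 17 of 26 were higher, where 23.7% of all genes were called higher and 2.99% lower. Without day 45 replicate B, 14 of these 17 were still called, where 14.4% of all genes were called higher, and Itga3, Itgb7 and Lamb2 were not. At days 100 and 200, 20 of 26 were higher, against 28.4% of all genes higher and 3.21% lower. In the knockout, 13 of 26 were higher than at day 0, against 19.3% of all genes higher and 14.5% lower. Calls are limma adjusted p-values under 0.05, on log2 of FPKM plus 1, which understates changes of low genes. In bulk liver, more cells of a type and more RNA per cell cannot be told apart.

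The median log2 fold change over the 26 tested members was 0.39, 1.11 and 1.49 in the day 21, day 45 and late libraries, and 0.65 in the knockout. Over all genes tested, the medians were 0.06, 0.20, 0.31 and 0.02. Among the 16 members with a day 0 mean of at least 1 FPKM, the numbers higher were 3, 9, 11 and 6 in the same order, where 5.1%, 18.4%, 22.8% and 15.4% of the 10304 tested genes with such a mean were. With no filter at all, 22 of the 37 were higher at day 45, where 22.0% of 17758 genes were called higher, and 27 of 37 at days 100 and 200, where 30.3% were. The day 45 libraries lay wholly above the day 0 libraries in 28 of 37 members, as they did in 40.0% of all genes above 0. This count was 21 of 37 at day 21 (23.9% of all genes), 30 of 37 at days 100 and 200 (52.7%) and 18 of 37 in the knockout (21.7%). Counting only knockout replicates A and B it was 23 of 37 (36.8%). No member was called different between day 45 and day 21, a comparison in which limma called 0.273% of all genes higher and 0.0% lower. At an unadjusted p under 0.05, that comparison had 1811 genes in all.

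**Figure D1:**
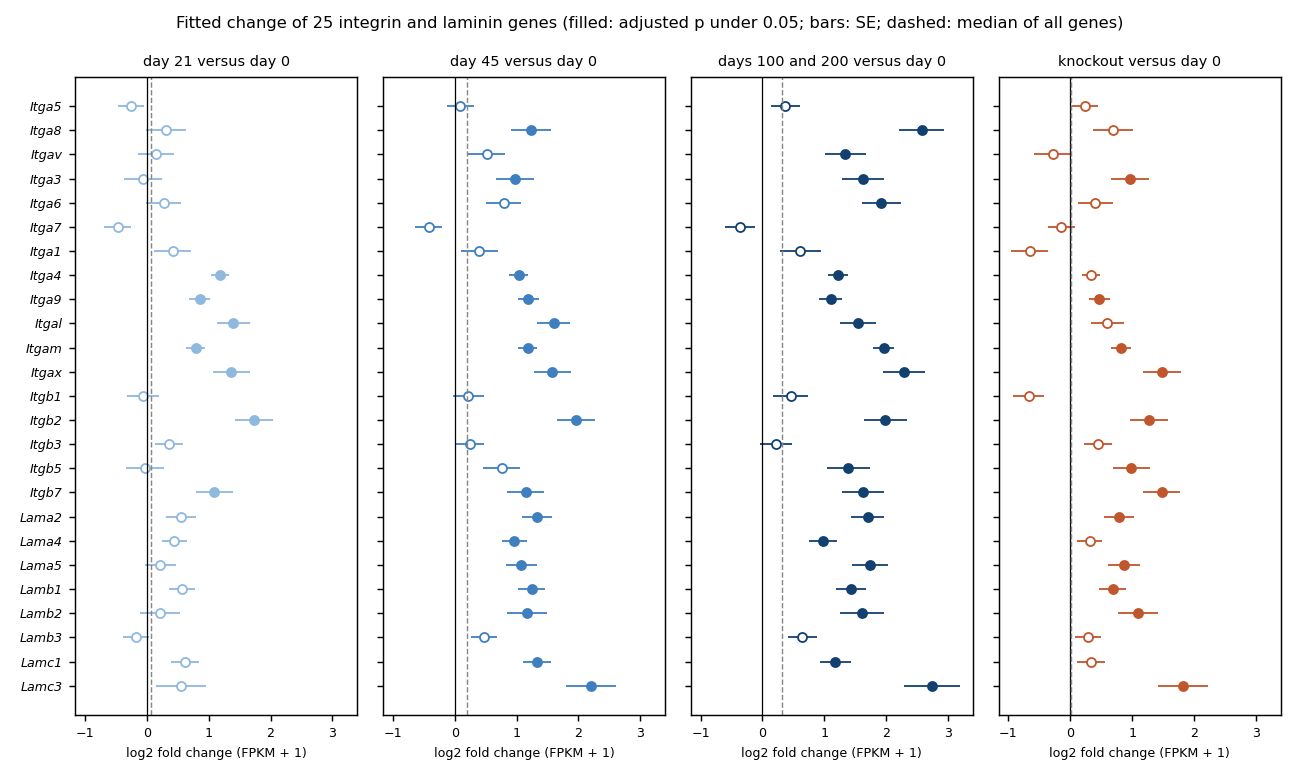
Fitted log2 fold change against day 0 (x axis, log2 of FPKM plus 1) of 25 of the 26 tested integrin and laminin genes, 1 panel per group. Points are estimates, bars are standard errors, filled points have a limma adjusted p under 0.05, and the dashed line is the median of all genes tested. The 7 genes filled at day 21 are Itga4, Itga9, Itgal, Itgam, Itgax, Itgb2 and Itgb7. Laminin points fill from day 45, with Lamc3 farthest right at 2.20.

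The beta2 integrins, the receptors with which leukocytes bind ICAMs and complement fragments, were already high at day 21. Itgb2 encodes the shared beta subunit (CD18) and lies at chr10:76993092-77028419 (NCBIM37). It read 2.58, 3.09 and 5.33 FPKM in the day 0 libraries and 13.1, 11.6 and 18.4 at day 21. The day 45 values were 14.1, 17.7 and 18.3, the day 100 and day 200 values 16.2 and 17.6, and the knockout values 14.6, 12.1 and 5.44. Every library of the other groups lay above every day 0 library. On the log2 scale Itgb2 rose by 1.74 ± 0.31 (SE, adjusted p = 0.00717) to day 21, by 1.96 ± 0.31 (adjusted p = 0.00112) to day 45 and by 1.98 ± 0.34 (adjusted p = 0.00107) to the late libraries.

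Its alpha partners lie within a stretch of chromosome 7. Itgal (chr7:134439861-134477412) encodes the alpha chain of LFA-1, which is found on most leukocytes, Itgam (chr7:135206153-135262005) that of Mac-1 on myeloid cells, and Itgax (chr7:135273081-135294171) that of p150,95 on dendritic cells and macrophages. Itgal read 1.59, 2.60 and 4.84 FPKM at day 0 and 9.58, 11.5 and 10.5 at day 45, with a log2 fold change of 1.60 ± 0.27 (adjusted p = 0.00137). Itgam read 0.364, 0.274 and 0.391 at day 0, 1.53, 2.45 and 2.21 at day 45, and 4.40 and 4.03 at days 100 and 200. For Itgax the values were 0.203, 0.184 and 0.340 at day 0, 1.99, 3.13 and 3.13 at day 45, and 5.35 and 4.80 at days 100 and 200. All 3 were called higher in each excised group, and their day 0 values did not overlap those of any of these groups. The fold between day 45 and day 0 means was 3.49 for Itgal, 6.01 for Itgam and 11.4 for Itgax. At day 21, the Itgam call was lost without day 0 replicate B, without day 21 replicate C and with the length trend removed, and the Itgax call without day 0 replicate A or B, without day 21 replicate C and with a replicate block.

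Itgal held a smaller share among the alpha partners in the later groups. Itgal made up 81.7% ± 7.2 (SD, n = 3) of the summed FPKM of Itgal, Itgam, Itgax and Itgad at day 0, 68.8% ± 3.7 (n = 3) at day 45, and 52.2% and 51.1% at days 100 and 200. Itgax made up 7.16% ± 1.91 (n = 3) at day 0, 17.8% ± 2.3 (n = 3) at day 45 and 25.9% to 26.2% at days 100 and 200. Itgb2 stood at 1.05 ± 0.12 FPKM (n = 3) per FPKM of its alpha partners at day 0. The ratio was 1.12 ± 0.11 (n = 3) and 1.09 ± 0.06 (n = 3) after 21 and 45 days and 1.15 ± 0.12 (n = 3) in the knockout (1.23, 1.20 and 1.01 in replicates A, B and C). At days 100 and 200 this ratio was 0.794 to 0.950. Itgad, the fourth alpha partner, stayed at 0.241 FPKM or lower in every library and was listed at 0 in day 0 replicate B. Itgad, Itgam and Itgax are close paralogs, and how reads shared between them were counted was not given in the sources used here.

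**Figure D2:**
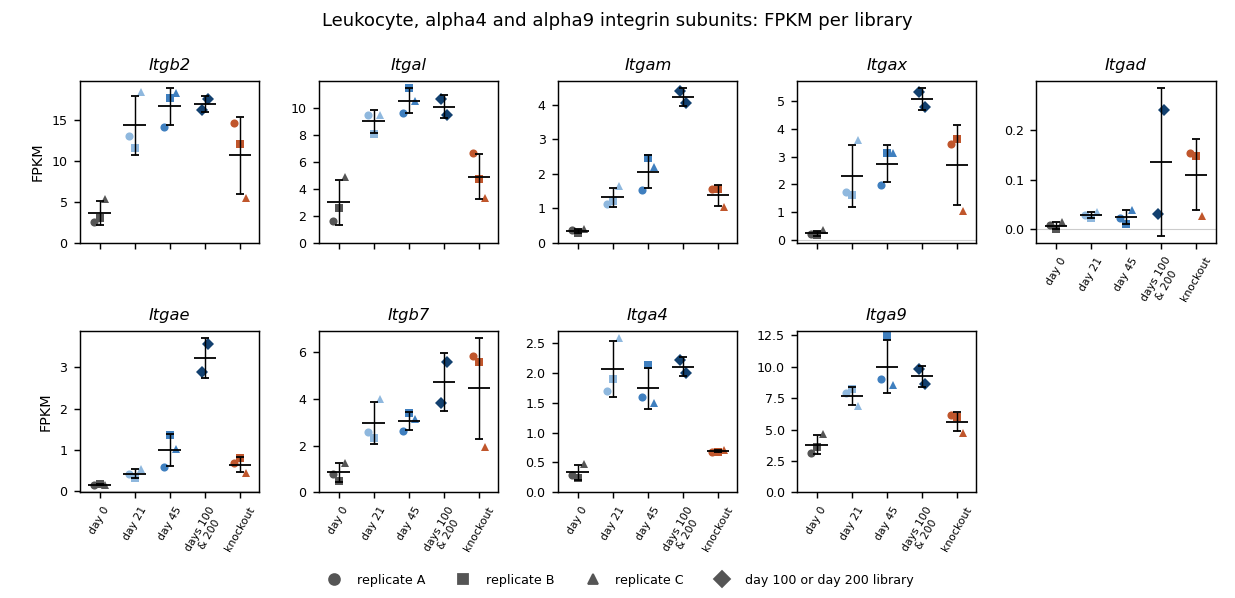
FPKM per library (y axis, linear) of 9 integrin subunits of leukocytes and of the alpha4 and alpha9 chains, by group (x axis). Symbols mark replicates, the horizontal line the group mean and the error bar the SD. In Itgb2 the 3 day 0 libraries sit at 2.58 to 5.33 and the 3 day 21 libraries at 11.6 to 18.4. In Itgb2, Itgax and Itgb7, knockout replicate C (triangle) sits below replicates A and B.

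The promoters of Itgam and Itgax are shown because these neighbouring genes had the largest folds at day 45 among the beta2 alpha partners that were tested. Each covers 250 bases before to 50 bases after the start of the gene (RefSeq, GRCm38.p6): chr7:128062390-128062689 for Itgam and chr7:128129300-128129599 for Itgax, both on the plus strand. Capitals mark GAGGAA on either strand (TTCCTC when reversed), the core read by PU.1 and other ETS factors of myeloid cells, TGANTCA, the AP-1 site, and GGAATG, the TEAD site, on either strand.
Itgam: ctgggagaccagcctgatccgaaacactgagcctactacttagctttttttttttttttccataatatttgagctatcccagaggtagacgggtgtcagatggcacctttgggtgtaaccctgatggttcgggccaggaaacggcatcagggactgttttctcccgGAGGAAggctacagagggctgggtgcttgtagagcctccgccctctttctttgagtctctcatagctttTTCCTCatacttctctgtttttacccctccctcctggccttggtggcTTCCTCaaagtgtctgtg
Itgax: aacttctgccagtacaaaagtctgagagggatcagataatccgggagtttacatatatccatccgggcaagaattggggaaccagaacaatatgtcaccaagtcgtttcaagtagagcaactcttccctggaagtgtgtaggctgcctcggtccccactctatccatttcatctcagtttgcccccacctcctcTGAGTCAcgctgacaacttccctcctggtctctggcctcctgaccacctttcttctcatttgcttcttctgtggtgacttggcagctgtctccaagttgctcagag
Itgam held 3 GAGGAA matches and no AP-1 match, whereas Itgax held 1 AP-1 match and no GAGGAA match. Of the 37 members, 23 had a RefSeq promoter in the table used. GAGGAA was present in 12 of these 23, in 7 of 18 integrins and in 5 of 5 laminins, namely Lama2, Lama5, Lamb1, Lamb2 and Lamb3, against 28.3% of 27025 promoters. TGANTCA was present in 2 of 23 (7.93% of all promoters) and GGAATG in 2 of 23 (14.6%). These matches describe letters and are not evidence of binding.

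Alpha4 and alpha9 form a pair of related chains that bind VCAM1, osteopontin and fibronectin. Itga4, whose product pairs with beta1 or beta7 on lymphocytes and monocytes, read 0.294, 0.242 and 0.474 FPKM at day 0 and 1.70, 1.89 and 2.58 at day 21. At day 45 it read 1.59, 2.14 and 1.50, and its log2 fold change was 1.03 ± 0.15 (adjusted p = 0.00069). Itga9 read 3.16, 3.63 and 4.62 at day 0 and 9.01, 12.4 and 8.59 at day 45 (1.19 ± 0.17, adjusted p = 0.000705). Both genes were called higher in each excised group, but the Itga9 call at day 21 was lost without day 0 replicate A or B, without day 21 replicate B and with the length trend removed. Itgb7, the lymphocyte beta chain that pairs with alpha4 and alphaE, read 0.787, 0.499 and 1.28 at day 0, 2.58, 2.31 and 3.98 at day 21 and 3.84 and 5.58 at days 100 and 200. Its call at day 21 (adjusted p = 0.044) was lost when any of the 6 libraries was left out, without a filter, with library centring (each library shifted to a common median), with a replicate block and with the length trend removed. Its day 45 call (1.15 ± 0.30, adjusted p = 0.0132) was lost without day 0 replicate B or day 45 replicate B.

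Itgae, the alphaE chain of intraepithelial T cells and some dendritic cells, was below the filter. It read 0.143 to 0.158 FPKM at day 0, 0.583 to 1.36 at day 45, and 2.88 and 3.57 in the day 100 and day 200 livers. The day 45 libraries did not overlap day 0, at an exact 2-sided permutation p of 0.1, the smallest that 3 against 3 allows. In the fit without a filter its log2 fold change at days 100 and 200 was 1.87 ± 0.15 (adjusted p = 6.04e-05).

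Most tested markers of leukocytes, other than those of dendritic cells, were called higher at day 45. The summed level of 11 Kupffer cell and macrophage markers was 329 to 602 FPKM before injection, 813 to 954 after 21 days and 1183 to 1323 after 45 days. For 6 recruited monocyte markers the sums were 70.7 to 123, 189 to 330 and 301 to 376, and for 9 T and NK cell markers 4.23 to 8.70, 31.1 to 55.9 and 17.9 to 28.3. Of the tested markers, 11 of 11 Kupffer cell and macrophage genes, 5 of 5 monocyte genes and 6 of 7 T and NK cell genes were higher at day 45. So were 3 of 3 B cell genes, 2 of 3 neutrophil genes and 1 of 3 dendritic cell genes, where 23.7% of all genes were called higher. The dendritic cell count is near that share. B cell markers summed to 1.73 to 4.45 FPKM at day 0 and 9.82 to 12.7 at day 45, neutrophil markers to 4.49 to 19.5 and 43.2 to 83.9, and dendritic cell markers to 2.72 to 4.45 and 7.37 to 10.8. In the late libraries the Kupffer cell and macrophage sum was 903 to 972 FPKM, below day 45, whereas Itgam and Itgax read highest there. Of its markers, 4 of 11 were called higher than at day 0, near the 28.4% of all genes called higher there. The monocyte sum was 586 to 765 (5 of 5 higher) and the T and NK cell sum 22.5 to 31.0 (5 of 7 higher). The part of these cells in the integrin results was not tested.

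Itgb1, the beta chain shared by most matrix receptors and the most abundant integrin gene in the day 0 and excised groups, was not called in any excised group. Itgb1 read 58.2, 70.3 and 67.0 FPKM at day 0 and 67.0, 88.5 and 73.8 at day 45. Its log2 fold changes in the day 21, day 45 and late libraries were -0.06 ± 0.25, 0.22 ± 0.25 and 0.46 ± 0.28, with adjusted p = 0.938, 0.597 and 0.253. The sum of the beta subunits went from 96.0 ± 8.0 (SD, n = 3) to 143 ± 22.8 FPKM (n = 3) at day 45, and the share of Itgb1 in it was 67.9% ± 5.1 (n = 3) at day 0, 53.5% ± 0.9 (n = 3) at day 45 and 50.8% and 46.8% at days 100 and 200.

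Partners of beta1 that bind laminin differed among themselves. Itga6, the chain of the alpha6beta1 and alpha6beta4 laminin receptors, read 0.462, 0.420 and 1.01 FPKM at day 0, 1.28, 3.29 and 1.21 at day 45, 7.20 at day 100 and 3.54 at day 200. It was called at days 100 and 200 (1.92 ± 0.32, adjusted p = 0.000788) and not at day 45 (0.79 ± 0.28, adjusted p = 0.0574). Itga3, another laminin receptor chain, read 1.83, 1.57 and 1.47 at day 0 and 2.56, 6.66 and 3.94 at day 45 (0.97 ± 0.31, adjusted p = 0.0333). That call was lost without day 45 replicate B or C, without any 1 of the day 0 libraries, with library centring and with the length trend removed. Itga7, the chain typical of muscle, read 2.08 to 2.96 at day 0 and 1.15 to 2.17 at day 45, at -0.42 ± 0.22 (adjusted p = 0.188). It was the 1 tested member with a negative estimate at day 45.

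Itgb4, the hemidesmosome subunit that pairs with alpha6 in epithelia, was below the filter and read 0.072 to 0.092 FPKM at day 0 and 0.477 to 1.41 at day 45. In the fit without a filter it was called higher at day 45 (0.77 ± 0.17, adjusted p = 0.0103). Of the collagen receptors only Itga1 was tested. It read 3.61 to 7.19 at day 0, 6.50 to 8.16 at day 45 and was not called after excision. Itga2 read 0.012, 0.009 and 0.032 at day 0, which corresponds to 1.9 to 6.1 fragments per library, and 0.212, 0.905 and 0.319 at day 45. Every day 45 library lay above every day 0 library, and without a filter Itga2 was called at day 45 (adjusted p = 0.0356). Itga10 and Itga11 stayed at 0.458 FPKM or lower in every library. Itga11 nevertheless read 0.025 to 0.067 at day 0 and 0.267 and 0.354 at days 100 and 200, and was called higher there without a filter (0.33 ± 0.05, adjusted p = 0.000897).

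Among the chains that bind the RGD sequence of fibronectin and vitronectin, Itga8 had the largest estimates. The alpha8 chain is found on stromal cells such as hepatic stellate cells. Itga8 read 1.44, 1.64 and 2.40 FPKM at day 0, 2.40, 2.86 and 2.18 at day 21, 3.26, 10.9 and 4.65 at day 45, and 15.3 and 16.0 in the day 100 and day 200 livers. The log2 fold change was 1.24 ± 0.32 (adjusted p = 0.0135) at day 45 and 2.57 ± 0.36 (adjusted p = 0.000336) at days 100 and 200. Without day 45 replicate B the day 45 value was 0.81 (adjusted p = 0.0479), and without day 0 replicate A the call was lost. Itgav, the alphav chain shared by beta1, beta3, beta5, beta6 and beta8, read 3.83 to 4.53 at day 0, 4.66 to 9.53 at day 45, 15.4 at day 100 and 8.97 at day 200. It was called at days 100 and 200 (1.34 ± 0.33, adjusted p = 0.00807). Without the day 100 library the group is 1 library, assumed to vary like the other groups, and the value was 0.98 (adjusted p = 0.134). Itga5, the fibronectin receptor chain, read 5.89 to 9.78 at day 0 and 6.68 to 10.2 at day 45 and was not called in any group. Itga2b, the platelet chain, stayed between 0.453 and 1.62 FPKM.

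The alphav partners differed in level and change. Itgb5, the vitronectin receptor chain and the most abundant beta chain after Itgb1 at day 0, read 25.6, 20.4 and 29.3 FPKM at day 0, 35.9, 53.0 and 40.9 at day 45, 65.8 at day 100 and 67.5 at day 200. Day 45 lay wholly above day 0 but was not called (0.76 ± 0.31, adjusted p = 0.0872), and days 100 and 200 were (1.39 ± 0.34, adjusted p = 0.00825). Against the day 200 library alone, again with the spread of the other groups, the value was 1.41 (adjusted p = 0.0602). Itgb3 read 0.855 to 2.17 FPKM in the day 0 and excised groups and was not called. In the knockout it read 2.11, 2.74 and 0.963, was not called with the 3 libraries, and was called higher without replicate C (0.72, adjusted p = 0.00673). Itgb6 and Itgb8, whose alphav pairs activate latent TGF-beta, were below the filter. Itgb6 read 0.005 to 0.032 at day 0, or 1.2 to 6.9 fragments per library, 0.207, 0.766 and 0.367 at day 45, 0.838 at day 100 and 1.00 at day 200. Itgb8 read 0.074 to 0.122 at day 0, 0.533, 1.43 and 0.414 at day 45 and 2.18 and 2.25 at days 100 and 200. Neither overlapped day 0 at day 45 (exact 2-sided permutation p = 0.1 each, the smallest possible), and both were called without a filter (adjusted p = 0.00732 and 0.0135).

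**Figure D3:**
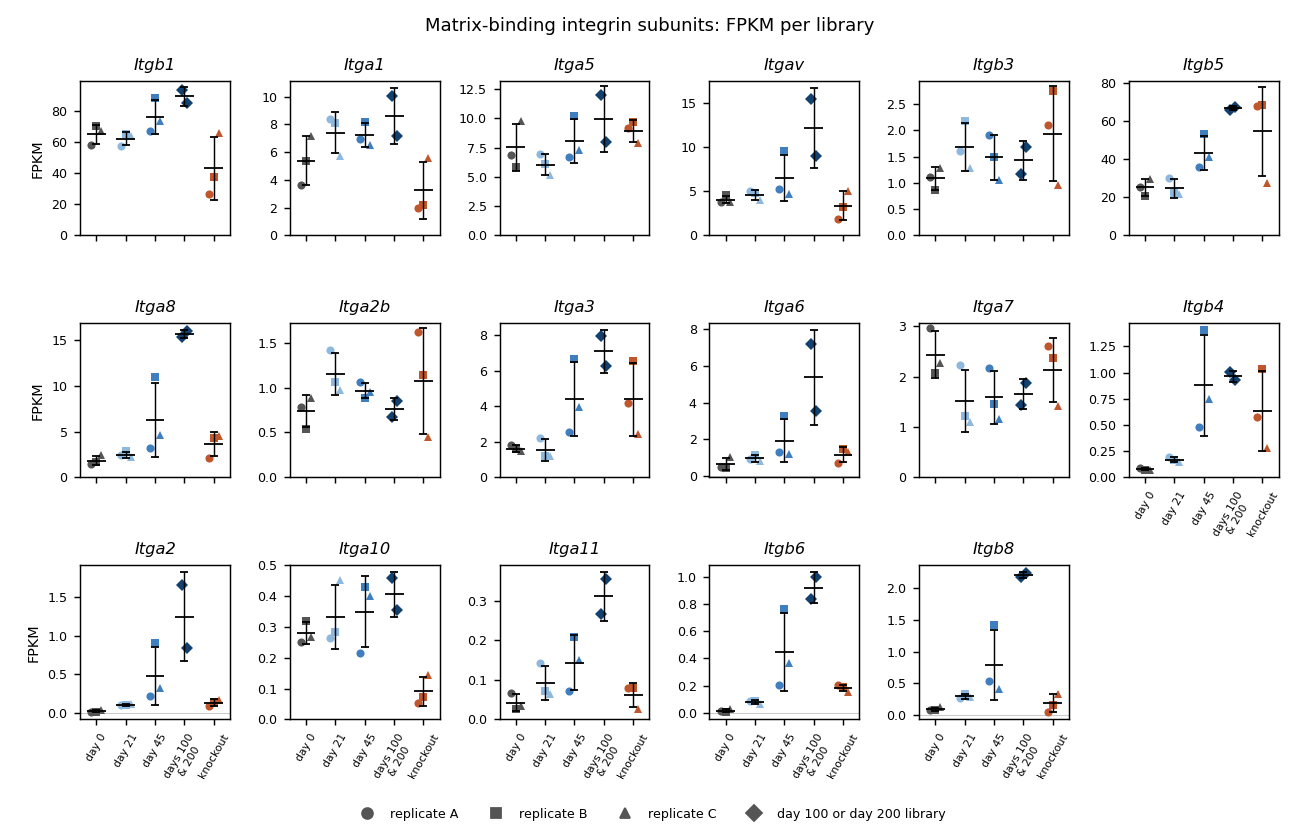
FPKM per library (y axis, linear, 1 scale per gene) of 17 matrix-binding integrin subunits by group (x axis). Symbols mark replicates, lines the group mean and error bars the SD. Itga8 sits at 1.44 to 2.40 in the day 0 libraries and at 15.3 and 16.0 in the late ones. In Itgb1 and Itga1, knockout replicates A and B sit lowest and replicate C (triangle) near the floxed libraries.

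Of the 9 laminin chains tested, 0 were called by limma at day 21 (4 had an unadjusted p under 0.05, namely Lama2, Lama4, Lamb1 and Lamc1), where 6.2% of all genes were called higher. At day 45, 8 of the 9 were higher, the exception being Lamb3, against 23.7% of all genes. The summed FPKM of the 11 chains was 8.68 to 11.9 at day 0 and 16.0 to 19.8 at day 21. It was 26.4 to 58.6 at day 45, 44.0 to 47.8 in the late libraries and 17.3 to 34.3 in the knockout. The difference between day 45 and day 21 was itself not called for any chain. For Lamc3 it was 1.65 ± 0.41 on the log2 scale (adjusted p = 0.102), and Lama2 was called without day 45 replicate A.

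Among the gamma chains, Lamc3 had a larger fold than Lamc1. Lamc1 (chr1:155066051-155179916) encodes gamma1, the chain of most laminins, and read 2.56, 2.68 and 3.27 FPKM at day 0 and 6.86, 11.8 and 7.78 at day 45 (1.33 ± 0.22, adjusted p = 0.00152). Lamc3 (chr2:31742800-31802055) encodes gamma3, a chain of restricted expression. It read 0.275, 0.496 and 0.508 at day 0, 1.43, 1.17 and 0.706 at day 21, 3.64, 11.3 and 3.92 at day 45, and 6.73 and 10.7 in the day 100 and day 200 livers. The fold of means between day 45 and day 0 was 3.11 for Lamc1 and 14.7 for Lamc3. All day 45 libraries of both genes lay above all day 0 libraries, with replicate B the highest in each. Without replicate B the log2 fold changes were 1.12 and 1.75, and both calls held.

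The alpha chains give each laminin its receptor binding. Lama2 (alpha2, of muscle and stromal basement membranes) read 0.166, 0.295 and 0.298 FPKM at day 0 and 1.19, 3.99 and 1.87 at day 45 (1.33 ± 0.24, adjusted p = 0.0019). Lama5 (alpha5, of epithelial and vessel basement membranes) read 0.260, 0.260 and 0.300 at day 0, 1.02, 2.87 and 1.48 at day 45, 3.82 at day 100 and 2.74 at day 200. Its day 45 call (1.08 ± 0.26, adjusted p = 0.00834) was lost with the length trend removed. Lama4, the vascular chain, was the most abundant alpha chain at day 0 with 0.785, 1.32 and 1.36, and read 2.26, 4.64 and 2.96 at day 45 (0.97 ± 0.20, adjusted p = 0.00437). Lama4 held 41.7% ± 4.1 (SD, n = 3) of the alpha chain sum at day 0 and 36.6% ± 2.1 (n = 3) at day 45, whereas Lama5 held 10.4% ± 2.9 (n = 3) and 19.1% ± 2.5 (n = 3). Lama1, the embryonic chain, and Lama3, an epithelial chain, were below the filter. Lama1 read 0.613 to 0.803 at day 0 and 1.02 to 1.23 at day 45, which did not overlap, and Lama3 ranged from 0.079 to 0.945 at day 0 alone. Neither was called without a filter (adjusted p = 0.0646 and 0.729 at day 45).

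Of the beta chains, Lamb1 (beta1) read 2.19, 2.20 and 2.72 FPKM at day 0 and 5.20, 10.7 and 6.01 at day 45 (1.25 ± 0.22, adjusted p = 0.00173). Lamb2 (beta2, of mature basement membranes) read 0.761, 1.09 and 1.39 at day 0 and 2.35, 5.30 and 3.78 at day 45 (1.17 ± 0.32, adjusted p = 0.0169). The Lamb2 call at day 45 was lost without day 45 replicate B, without day 0 replicate A and with the length trend removed. Lamb3, an epithelial chain, read 0.724 to 0.737 at day 0, 0.447 to 0.675 at day 21 and 1.07, 1.94 and 1.29 at day 45. All of its day 45 libraries lay above day 0, but it was not called (0.48 ± 0.21, adjusted p = 0.119).

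**Figure D4:**
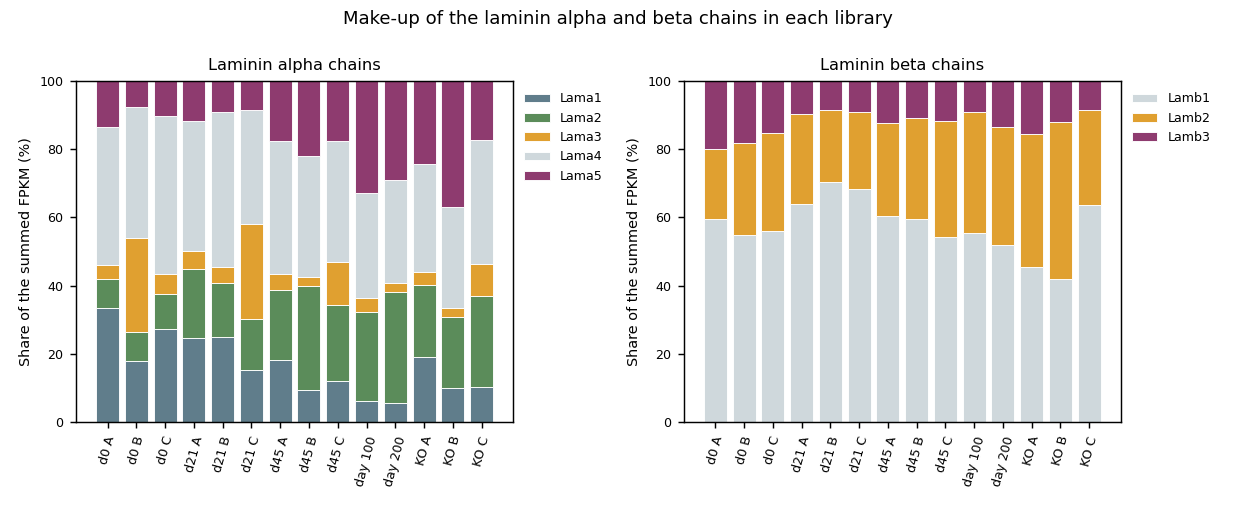
Share of the summed FPKM (y axis, percent) held by each laminin alpha chain (left) and beta chain (right) in each of the 14 libraries (x axis). Lamb1 holds 54.9% to 59.5% of the beta chains at day 0 and 54.3% to 60.4% at day 45. Lama2 takes a larger share of the alpha chains than at day 0 from day 21 on, and Lama5 from day 45 on.

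**Figure D5:**
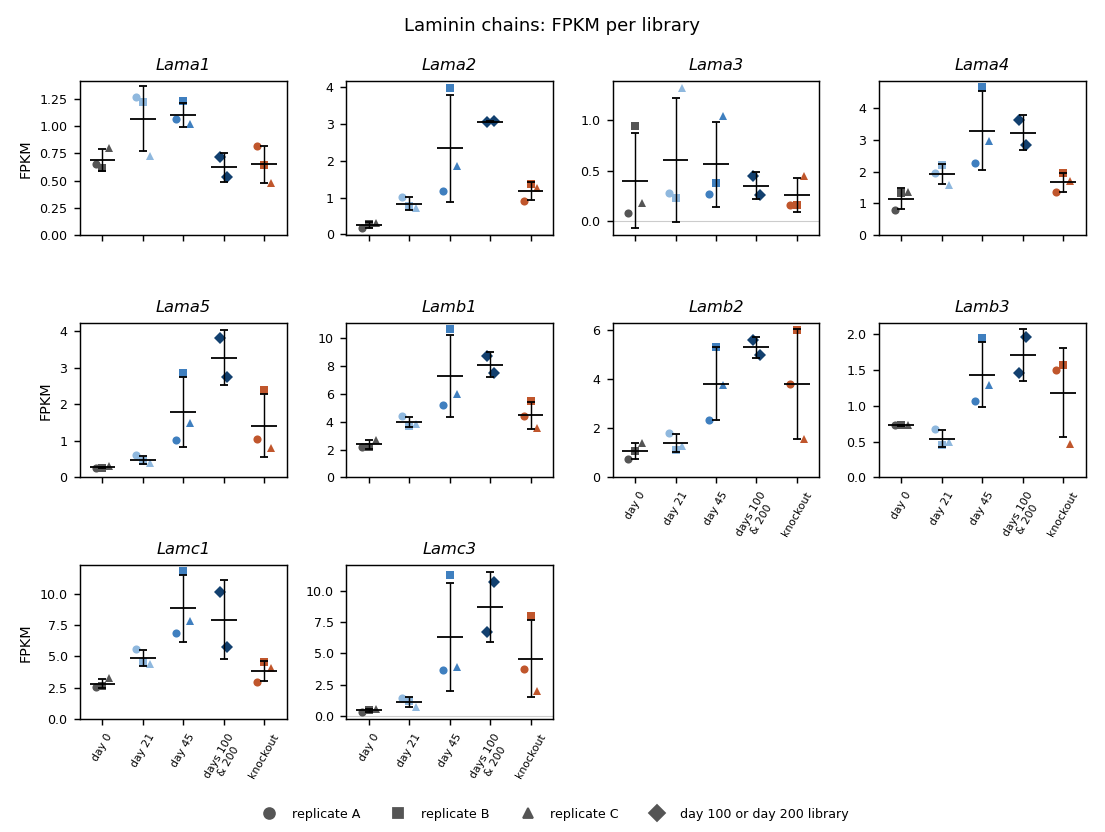
FPKM per library (y axis, linear, 1 scale per gene) of 10 laminin chains by group (x axis). Symbols mark replicates, lines the group mean and error bars the SD. Day 45 replicate B (square) is the highest day 45 library in 9 of the 10 panels, the exception being Lama3.

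Most tested markers of matrix-producing and duct cells were higher at day 45, where limma called 23.7% of all genes higher and 2.99% lower. The summed level of 8 cholangiocyte markers was 5.82 to 7.92 FPKM at day 0, 14.8 to 18.3 at day 21, 49.7 to 171 at day 45 and 191 to 198 at days 100 and 200, and 7 of 7 tested were higher at day 45. For 10 stellate cell and fibroblast markers the sums were 150 to 202, 316 to 326, 408 to 659 and 665 to 675, with 9 of 10 higher at day 45. The 8 endothelial markers summed to 102 to 172 at day 0 and 215 to 223 at day 45, with 3 of 8 higher. Proliferation markers summed to 1.45 to 6.30 at day 0 and 10.8 to 20.5 at day 45, with 4 of 4 higher. Mesothelial markers summed to 1.89 to 11.6 and 4.85 to 7.48, with 0 of 3 called by limma at day 45, and platelet markers to 1.59 to 2.05 and 3.72 to 7.07, with 1 of 1 higher. Among the 8 hepatocyte markers, 0 of 7 tested were higher and 1 was lower, and Serpina1c was listed at 0 at days 0, 21 and 45. Among platelet markers, Gp1bb was listed at 0 at day 0 and Gp6 at day 45. The part of these cells in the laminin results was not tested.

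Lamc1 was also read for its microRNA site, because gamma1 and collagen genes are known targets of the miR-29 family, which restrains matrix genes in stellate cells. The family shares 1 seed (bases 2 to 8, in capitals; RefSeq, GRCm38.p6).
miR-29a-3p: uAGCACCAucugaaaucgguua
miR-29b-3p: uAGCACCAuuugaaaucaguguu
miR-29c-3p: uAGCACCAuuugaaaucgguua
In the longest GENCODE 3′ UTR of each gene, a match to the seed was found in 6 of 37 members (Itga4, Itga5, Itga9, Itgb1, Itgb3 and Lamc1), against 12.4% of 19915 genes. The longer match, with an A opposite base 1, was in 1 of 37, Lamc1, against 2.64% of genes. The Lamc1 site lies at chr1:155067187-155067216 (NCBIM37, minus strand), in the 3′ UTR, with the match in capitals.
Lamc1: atctgacacacTGGTGCTAttaattatttg
The 4 miR-29 entries of the small RNA table summed to 3.74% to 11.2% of the listed RPM without miR-122 at day 0 and 4.57% to 12.1% at day 21. The sums were 4.77% to 10.8% at day 45, and 5.13% and 12.3% in the day 100 and day 200 livers. These ranges overlapped. As a share of all listed RPM, miR-122 included, the sums were 1.25% to 4.59% at day 0, 4.19% to 10.5% at day 21 and 4.75% to 10.6% at day 45. They were 4.90% and 9.94% in the day 100 and day 200 livers, so that day 45 and later lay above day 0. Such a share rises for other microRNAs when miR-122 falls, so it cannot show a rise of miR-29 itself. Whether this family acted on Lamc1 was not tested.

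In the knockout, Lamc3, Itgax and Itgb7 had the largest estimates against day 0. Lamc3 read 3.76, 7.98 and 1.98 FPKM against 0.275 to 0.508 at day 0 (1.82 ± 0.41, adjusted p = 0.00657), and Itgax read 3.46, 3.62 and 1.03 (1.48 ± 0.30, adjusted p = 0.00427). Itgb7 read 5.82, 5.58 and 1.94 (1.48 ± 0.30, adjusted p = 0.0041), and Itgb2 had a log2 fold change of 1.27 ± 0.31 (adjusted p = 0.00965). Without replicate C the log2 fold changes of Lamc3, Itgax, Itgb7 and Itgb2 were 2.20, 1.87, 1.87 and 1.66, and with the length trend removed 1.97, 1.53, 1.41 and 1.24, each with its call kept. The other genes called included Itga3, Itga9, Itgam, Itgb5, Lama2, Lama5, Lamb1 and Lamb2. Replicate C read lowest of the 3 knockout libraries in each gene named here except Lama2. Some cell type markers were also higher in the knockout, where 19.3% of all genes were called higher and 14.5% lower. The cholangiocyte sum was 43.7 to 147 FPKM (7 of 7 tested markers higher than at day 0), the monocyte sum 125 to 385 (5 of 5), the neutrophil sum 32.03 to 167 (3 of 3), the T and NK cell sum 9.83 to 25.4 (4 of 7) and the stellate cell and fibroblast sum 217 to 331 (6 of 10). Of the Kupffer cell and macrophage markers 3 of 11 were higher, and of the endothelial markers 1 of 8 was higher and 2 were lower. The Kupffer cell and macrophage sum was 1648, 1116 and 389 FPKM in replicates A, B and C, against 329 to 602 at day 0. These marker counts use all 3 knockout libraries. The part of these cells in the knockout results was not tested.

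Without replicate C, 16 members were higher and 2 lower, against 31.7% and 30.7% of all genes. The 2 lower were Itgb1, at 26.6 and 37.4 FPKM (-1.02, adjusted p = 0.000297), and Itga1, at 1.94 and 2.18 FPKM (-1.02, adjusted p = 0.00252). In replicate C the 2 genes read 65.7 and 5.58, inside their day 0 ranges. With the length trend removed, 17 members were higher and 1 lower, Itgb1 (-0.64, adjusted p = 0.0285), against 21.0% and 19.7% of all genes. With library centring Itgb1 was also lower (-0.71, adjusted p = 0.0387), and without a filter Itga10 was (-0.23, adjusted p = 0.0352). With only day 0 and the knockout in the fit, 6 members were called, all higher, against 7.31% of all genes higher. Without day 0 replicate A or B there were 6 each (15.5% and 11.8%), and without knockout replicate A or B 8 and 5 (11.8% and 9.47%). The calls of Itgam, Itgax, Itgb7 and Lamc3 held under every alternative run. Each of these genes had a day 0 mean under 1 FPKM, and so passed the filter only through groups in which it was high.

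Set against day 45, the knockout read 6 members lower (8.23% of all genes lower, 1.21% higher), of which Itgb1, Itga1, Itga4, Itga9 and Itgal are integrins and Lamc1 is a laminin. Itga4 read 0.680, 0.678 and 0.711 FPKM in the knockout against 1.50 to 2.14 at day 45 (-0.69 ± 0.15, adjusted p = 0.0191). Lamc1 read 3.00, 4.55 and 4.06 against 6.86 to 11.8 (-0.99 ± 0.22, adjusted p = 0.0235). With the length trend removed, 0 members were called by limma in this comparison, against 2.18% of all genes lower and 1.87% higher (3100 genes had an unadjusted p under 0.05). Without replicate C, 8 members were lower and 2 higher, Itgb5 and Itgb7, against 37.5% and 14.6% of all genes. Endothelial markers summed to 95.6 to 115 FPKM in the knockout and 215 to 223 at day 45, with 5 of 8 lower and 0 higher. Kupffer cell and macrophage markers summed to 389 to 1648 and 1183 to 1323, with 5 of 11 lower and 0 higher. The part of these cells was not tested.

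Genes whose products act with integrins were read from 3 lists. Of 39 genes of the intracellular adhesion machinery, 22 were higher and 0 lower at day 45 (23.7% and 2.99% of all genes), with a median log2 fold change of 0.65 against 0.20 for all genes, and 5 were higher at day 21 (6.2% of all genes). The 5 genes with the largest changes were Flna, Src, Zyx, Evl and Parvg. Flna, an actin crosslinker that binds beta integrin tails, went from 4.11 ± 0.75 (SD, n = 3) to 17.2 ± 4.7 FPKM (n = 3). Src, the kinase downstream of integrins, went from 0.578 ± 0.081 (n = 3) to 4.02 ± 2.08 (n = 3), and stood at 7.58 to 11.8 in the late libraries. Parvg, the leukocyte parvin, went from 0.605 ± 0.227 (n = 3) to 3.42 ± 0.60 (n = 3). Zyx and Evl, focal adhesion and actin assembly proteins, had log2 fold changes of 1.59 ± 0.40 (adjusted p = 0.0108) and 1.58 ± 0.30 (adjusted p = 0.00274). The count of 22 became 12 without day 45 replicate B, where 14.4% of all genes were higher, and 14 with library centring, where 15.1% were.

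Of the 18 tested integrin ligands other than laminins and collagens, 12 were higher and 0 lower at day 45 (23.7% and 2.99% of all genes), with a median of 1.11, and 13 of 18 estimates were positive. The summed level of all 22 listed ligands was nevertheless lower, at 10324 to 13917 FPKM at day 0 and 8405 to 9775 at day 45, and 11753 to 12930 in the late libraries. With library centring 8 ligands were higher and 2 lower, against 15.1% and 6.38% of all genes. Spp1, osteopontin, a ligand of alphav, alpha8, alpha4 and alpha9 integrins, was 46.9 ± 7.1 FPKM (SD, n = 3) at day 0, 165 ± 33.1 (n = 3) at day 21, 765 ± 448 (n = 3) at day 45 and 1854 to 2866 in the late libraries. Its log2 fold change was 3.84 ± 0.36 at day 45 (adjusted p = 8.24e-05). Vcam1, the ligand of alpha4beta1, read 3.68 to 6.90 at day 0, 14.6 to 37.8 at day 21 and 19.2 to 31.1 at day 45. Icam1, the ligand of LFA-1 and Mac-1, read 3.46 to 7.16 at day 0, 12.9 to 20.7 at day 21 and 18.5 to 23.4 at day 45. Both were called at day 21 (adjusted p = 0.00471 and 0.0422) as well as at day 45. Mfge8, a ligand of alphavbeta3 and alphavbeta5, and Ctgf (Ccn2) had log2 fold changes of 2.66 ± 0.51 (adjusted p = 0.00276) and 2.14 ± 0.49 (adjusted p = 0.00708). Madcam1, the ligand of alpha4beta7, was listed at 0 in every day 0 library.

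Of 16 basement membrane and laminin partner genes, 9 were higher and 0 lower at day 45 (23.7% and 2.99% of all genes), with a median of 0.98. At day 21, 1 of 16 was higher, near the 6.2% of all genes. Col4a1 and Col4a2, the collagen IV chains that meet laminin in the basement membrane, went from 4.89 ± 1.48 (SD, n = 3) to 31.2 ± 18.1 FPKM (n = 3) and from 2.81 ± 0.84 (n = 3) to 17.7 ± 10.0 (n = 3). Bcam, a receptor of alpha5 laminins, read 1.35 to 3.40 at day 0 and 8.06 to 17.8 at day 45 (1.97 ± 0.41, adjusted p = 0.00443). Sparc and Smoc2, matricellular proteins of the same family, had log2 fold changes of 2.14 ± 0.31 (adjusted p = 0.000808) and 2.29 ± 0.31 (adjusted p = 0.000571). In the knockout, 16, 7 and 9 genes of the 3 lists were higher than at day 0, and 2, 0 and 0 were lower (19.3% and 14.5% of all genes). Without replicate C, 20, 11 and 13 were higher and 7, 2 and 0 lower (31.7% and 30.7%), and with the length trend removed 17, 8 and 11 were higher and 5, 0 and 0 lower (21.0% and 19.7%).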

How the data were processed

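Poly(A) RNA of mouse livers was sequenced as paired 101-bp reads, and small RNA libraries were made from livers of the same study. The authors aligned reads to mm9 with TopHat and deposited FPKM per gene from Cufflinks 2.2.1 with quartile library normalization, without ribosomal, snoRNA and mitochondrial sequences, and RPM per microRNA with 1 added, which was subtracted here (the submitters' processing notes also name Bowtie 0.12.7). The RPM served only for the shares of miR-122 and miR-29. Quartile scaling sets levels relative to other genes, so a shift shared by the whole transcriptome of a group would not be seen.

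Rows of 1 symbol were summed (22308 rows, 21888 symbols, 224 with several rows), and those averaging 1 FPKM or more over 14 libraries were tested (11354 genes). Groups were fitted together as log2 of FPKM plus a pseudocount of 1 with limma 3.58.1 in R 4.3.3 (trended empirical Bayes, Benjamini-Hochberg over all genes tested), in 5 groups with no covariate. A call is an adjusted p under 0.05. Members below the filter were compared by exact 2-sided permutation tests of the difference of means. Depth was estimated from FPKM steps and transcript length. The fit was checked on simulated data. Alternatives were the pseudocount, the filter, centring, a replicate block, the fit of 2 groups only, robust variances, the highest row of a symbol and each library left out, and, chosen after seeing the data, removal of a trend on transcript length and the members with a day 0 mean of at least 1 FPKM.

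The members and lists were chosen with earlier results of these data known. Members are named except 1, which is counted but not reported here, and from each pathway list up to 5 called genes with the largest change at day 45. Marker lists are given as totals and counts. Coordinates are NCBIM37 (mm9) with GENCODE vM1. Promoters and microRNAs are RefSeq, GRCm38.p6, and motif and miR-29 searches were chosen after seeing the data. Figures were drawn with matplotlib 3.10.9, and tables were handled in Python 3.11.15 (scipy 1.17.1, pandas 2.3.3, numpy 2.4.6).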

Additional observations from a re-analysis of the deposited data

Results flagged for a closer look

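The change from day 0 differed between the knockout and day 45, by the limma test of the knockout against day 45, in 6 members. The log2 difference, knockout minus day 45, was -1.05 for Itga1, -0.69 for Itga4, -0.72 for Itga9, -1.0 for Itgal, -0.9 for Itgb1 and -0.99 for Lamc1. The median over all genes in this comparison was -0.23. With the length trend removed, 0 of the 6 remained called, as with only the 2 groups in the fit, without day 45 replicate B and without knockout replicate B, and with library centring 1 remained, Lamc1. The groups hold 2 or 3 libraries, so no single library was tested as an outlier.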

How the results depend on the processing

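No call of a member changed direction under any alternative run. Of 968 recomputed calls, 836 held and 132 lost significance, and 3 of 7 calls at day 21, 12 of 17 at day 45, 15 of 20 at days 100 and 200, 4 of 13 in the knockout and 0 of 6 between the knockout and day 45 held throughout. Members called at day 21 were 11 with only the 2 groups in the fit (12.3% of all genes higher), 4 with the length trend removed (6.24%) and 3 to 6 when a library was left out (1.74% to 4.52%; 3 without day 0 replicate B, 4 without day 0 replicate A or day 21 replicate C). At day 45 the counts without a library were 14 to 17 (14.4% to 22.0%), and at days 100 and 200 15 (without day 100, 13.7%) to 20. Leaving out day 100 or day 200 left a group of 1 library, assumed to vary like the other groups. For the knockout against day 0 the count was 6 with only the 2 groups, and 5 (without knockout replicate B), 6 (without day 0 replicate A or B), 8 (without knockout replicate A) to 18 (without knockout replicate C). Among members with a day 0 mean of at least 1 FPKM the counts were 3, 9, 11 and 6, where fewer genes were eligible (16). Between day 45 and day 21 the count was 1 with a pseudocount of 0.1 FPKM (0.511% of all genes higher) and 0 to 2 without a library (0.0% to 1.58%). Between the knockout and day 45 it was 1 with library centring (2.24% of all genes lower), 0 with only the 2 groups (0.37%) or the length trend removed (2.18%), and 0 (without day 45 replicate B or knockout replicate B) to 10 (without knockout replicate C) without a library (1.49% to 37.5% lower). The cause was not tested.

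The replicate letters did not pair the libraries consistently: same-letter libraries of different groups correlated in their deviations at -0.447 to 0.501, with 8 of 18 pairs over 0.1. Between day 21 and day 45, same-letter libraries correlated at 0.272 (A), 0.236 (B) and 0.501 (C), and libraries of different letters at -0.411 to 0.262. Day 0 replicate B correlated with replicate C of day 21, day 45 and the knockout at 0.485, 0.508 and 0.357. What these libraries shared was not tested. With a replicate block, 5 members were called at day 21, 18 at day 45 and 12 in the knockout (3.39%, 20.9% and 15.9% of all genes higher), 0 for the day 45 minus day 21 difference and 2 for knockout minus day 45. Days 100 and 200 carry no letter and were left out of that fit. Adhesion machinery genes called at day 45 were 14 with library centring and 12 (without day 45 replicate B) to 20 without a library. The ranges were 8 to 12 for integrin ligands and 7 to 10 for basement membrane genes.

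With 2 or 3 libraries a group, leaving out 1 library ended some calls, including calls with an adjusted p as low as 0.00364 (Lamc1 at days 100 and 200, without day 100). Library centring moved the median of all genes at day 45 from 0.20 to -0.02, and the split of calls over all genes from 2688 higher and 339 lower to 1711 and 724. At days 100 and 200 it moved from 0.31 to 0.00, with 3227 and 365 against 1851 and 900.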
